A study of Mus musculus with 7 samples.

Results

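The genes described here are 10 mitophagy receptors and adaptors, chosen by name but with earlier results of these data known. They are Pink1, Bnip3, Bnip3l, Fundc1, Sqstm1, Optn, Tax1bp1, Phb2, Ulk1 and Fkbp8. A named probe set was found for 8 of them among the 19505 genes compared, and each of the 8 had a single probe set. The probe sets are TC0700004474.mm.2 for Bnip3, TC1400002281.mm.2 for Bnip3l, TC0X00001900.mm.2 for Fundc1, TC0800000753.mm.2 for Fkbp8, TC0600001427.mm.2 for Phb2, TC0500003000.mm.2 for Ulk1, TC1100002664.mm.2 for Sqstm1 and TC0600000633.mm.2 for Tax1bp1. Pink1 and Optn were not analysed here. RNA was measured on 7 Affymetrix arrays of type 1 conventional dendritic cells (cDC1), the subset specialised in presenting engulfed antigen to CD8 T cells. The labels describe the cells as sorted from spleens of C57BL/6 mice. The 3 arrays of the WT group came from WT mice, and the 4 arrays of the KO group from CD11c-Cre; OPA1 flox mice, in which a Cre recombinase under the CD11c promoter acts on a floxed Opa1 gene. CD11c is carried by other dendritic cells and by many macrophages as well, so the deletion is not particular to cDC1. All mice of both groups bore tumors of B16-OVA, a mouse melanoma line that makes ovalbumin. The titles call all 7 samples splenic, while the growth protocol they share speaks of intratumoral as well as splenic cells. Age, sex and whether the WT mice carried Cre or the floxed allele are not given in the sources used here. Nothing in the labels ties arrays to separate mice, so p-values measure the spread between these arrays only.

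Mitophagy is the removal of mitochondria by autophagy, in which a growing membrane coated with proteins of the LC3 and GABARAP families closes around its cargo and fuses with the lysosome. In the ubiquitin-dependent arm the kinase PINK1 gathers on mitochondria that have lost their membrane potential, ubiquitin chains are built on their surface, and adaptors such as SQSTM1 (p62), OPTN and TAX1BP1 bridge these chains to LC3. In the receptor arm the outer membrane proteins BNIP3, BNIP3L (NIX), FUNDC1 and FKBP8 bind LC3 themselves, PHB2 does so at the inner membrane, and the kinase ULK1 starts the autophagosome. Opa1 encodes the GTPase that fuses inner mitochondrial membranes, and mitochondria that cannot fuse are known as a substrate of mitophagy. The arrays measure RNA and do not measure mitophagy. In sorted bulk samples fewer cells of a type and less RNA per cell cannot be told apart.

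Values are log2 expression values, so a difference of 1 is a factor of 2, and every difference below is KO minus WT. Values of single arrays are listed in the order of their numbers, WT 1 to WT 3 and then KO 1 to KO 4. Opa1 itself had WT values of 8.14, 8.80 and 9.15 and KO values of 7.70, 7.10, 6.85 and 8.24. The group ranges overlapped, since KO 4 lay above WT 1, and the difference of -1.22 (standard error 0.363) was not called by limma (adjusted p = 0.223, exact two-sided permutation p = 0.114). It was -0.996 without WT 3 and -1.67 without WT 1 and WT 2. Opa1 was below the 95th percentile of the negative control probe sets on all 7 arrays and 0.18 above their median where it came closest, so its difference was taken near background. Where its probes lie relative to the deleted part was not analysed here, so groups are named as the arrays are labelled.

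WT 1 and WT 2 stood apart from the other 5 arrays. Across all genes they correlated with each other at r = 0.982 and with the remaining arrays at 0.924 to 0.954, while those 5 correlated among themselves at 0.988 to 0.993. Of 15 cDC1 markers 15 had a higher mean in KO, and the list mean, relative to KO, was -0.88, -2.24 and -0.058 for the WT arrays. Cd8a, a surface marker of the splenic subset, had WT values of 7.89, 6.96 and 12.11 and KO values of 11.95 to 12.12. Xcr1, the cDC1 chemokine receptor, had WT values of 12.12, 7.97 and 12.76 and KO values of 12.70 to 12.79. It was thus far below KO on WT 2 and less so on WT 1. Clec9a, another cDC1 receptor, had WT values of 10.46, 7.29 and 12.10 and KO values of 12.03 to 12.11. Of 19 measured melanocyte markers 18 had a lower mean in KO, their summed linear level was 21221 to 97876 in WT and 11924 to 13699 in KO, and the list mean stood 3.43, 3.71 and 1.11 above KO on WT 1 to 3. Pmel, a melanosome protein, had WT values of 13.51, 13.59 and 11.62 and KO values of 9.75, 9.68, 9.11 and 7.99. None of the 19 lay at or below the median of the negative control probe sets on all 3 WT arrays, and 1, S100b, did so on all 4 KO arrays. Lists of cDC2 (8 genes) and of monocyte and macrophage markers (12) stood 2.07 and 1.61 above KO on WT 2, against -0.18 and 0.19 on WT 1 and 0.41 and 0.43 on WT 3. Plasmacytoid, B cell, T and NK cell, neutrophil, erythroid, and fibroblast and endothelial lists had means between -0.81 and 0.48 on the 3 WT arrays. Such means can hide genes of opposite sign. In the last list Kdr stood at 2.02 and 2.92 relative to KO on WT 1 and WT 2, and Pecam1 at -2.49 and -2.10. The marker values of WT 1 and WT 2 thus go in part against their label as sorted splenic cDC1, and which cells or RNA these samples held was not tested. WT 1 and WT 2 below mean the arrays so labelled, and every difference that includes them carries this doubt. WT 3 also read above every KO array for 17 of the 19 melanocyte markers (18.1% of all genes). Leaving out WT 1 and WT 2 therefore does not remove the doubt. Each member is therefore given for all 7 arrays, without WT 3, and without WT 1 and WT 2, where the last setting compares 1 WT array with 4 KO arrays and assumes that it varies as they do.

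Of the 8 measured members 0 had an adjusted p under 0.05 in limma for KO against WT, as was the case for 0% of all 19505 genes. At an unadjusted p under 0.05, 3 members were lower in KO (Bnip3, Bnip3l and Sqstm1) and 1 was higher (Fundc1), against 10.6% and 8.98% of all genes. The KO mean was below the WT mean for 7 of the 8, against 40.1% of all genes, and the median difference was -0.34 over the members and 0.059 over all genes. With arrays centred on their medians, or with quantile normalization, 6 of the 8 were lower, since Tax1bp1 changed sign. The KO values lay entirely below the WT values for 1 member, Sqstm1 (5.92% of all genes), and entirely above them for 0 (7.85%).

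WT 3 lay inside the range of the 4 KO arrays for 6 of the 8 members, above it for 1 (Sqstm1; 18.1% of all genes) and below it for 1 (Ulk1; 24.2%). WT 1 and WT 2 both lay above all other arrays for 6 members (19.4% of all genes) and below them all for 1 (22% of all genes). When WT 3 was left out, 6 members were called lower in KO and 1 higher (limma, adjusted p under the threshold), against 13.8% and 11.4% of all genes. When WT 1 and WT 2 were left out, 0 members were called (0 of all genes as well, with 1154 genes at an unadjusted p under 0.05 and no member among them), 3 of the 8 had a KO mean below WT 3 (44.7% of all genes), and the median difference was 0.062. Differences in that setting stayed within 0.28 in size for every member.

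**Figure D1:**
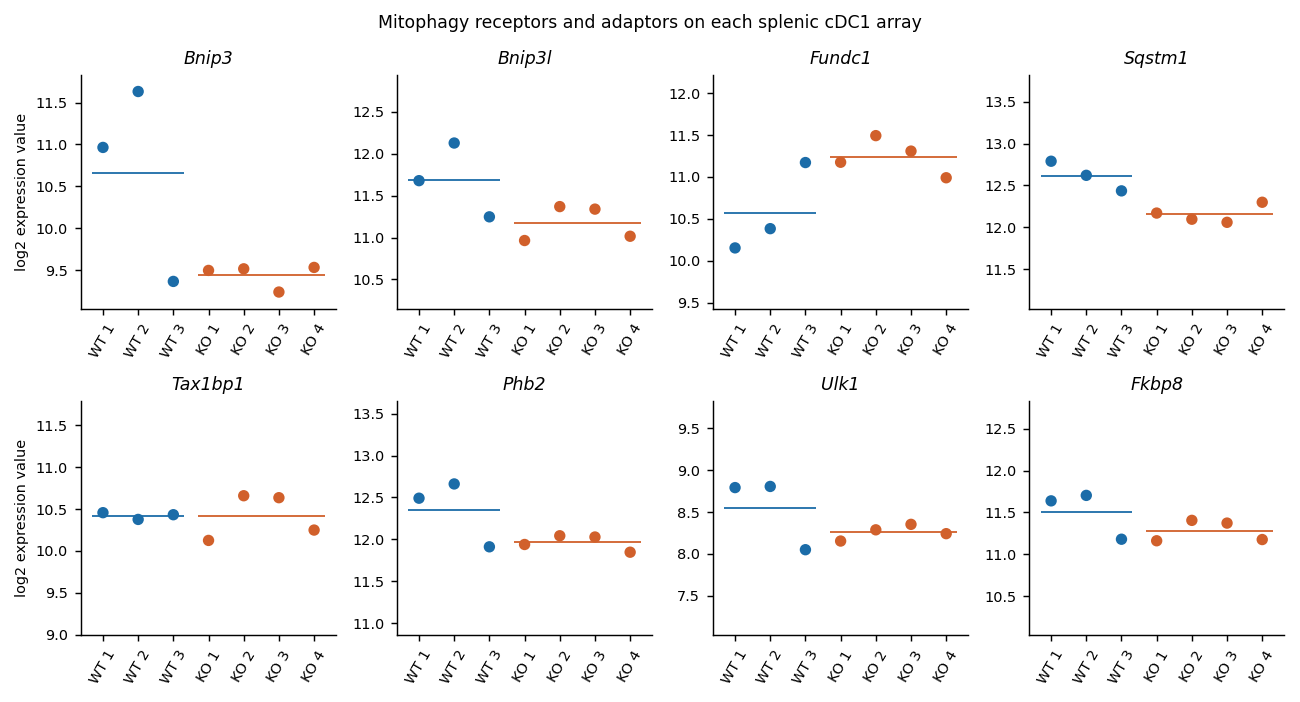
Log2 expression value (y axis, of the same span in each panel) of the 8 measured members on each array (x axis), with WT in blue, KO in orange and horizontal lines at the group means. WT 3 sits with the KO arrays in every panel except Sqstm1, where it lies above them, and Ulk1, where it lies below them.

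Bnip3 encodes a BH3-like protein of the outer mitochondrial membrane that is induced by hypoxia and binds LC3. WT values were 10.96, 11.63 and 9.36 and KO values were 9.50, 9.52, 9.24 and 9.53, the widest range of any member at 2.39. WT 1 and WT 2 were thus above every other array, while WT 3 was lower than 3 of the 4 KO arrays. The mean was 10.65 ± 1.17 (SD, n = 3) over the WT arrays and 9.45 ± 0.14 (SD, n = 4) over the KO arrays, a 2.31-fold higher WT mean that did not pass correction (limma, difference -1.21, 95% interval -2.27 to -0.14, adjusted p = 0.232). In the exact permutation test of this gene p was 0.229, where the smallest p that 3 against 4 arrays allow is 0.0571. Without WT 3 the difference was -1.85 (limma, adjusted p = 0.000166) and without WT 1 and WT 2 it was 0.081 (95% interval -0.29 to 0.45). Bnip3 exceeded the 95th percentile of the negative control probe sets on 2 arrays, WT 1 and WT 2, and lay at least 2.57 above their median on all 7.

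Bnip3l encodes the close relative NIX, known for clearing mitochondria from maturing red cells. WT values were 11.68, 12.13 and 11.25 and KO values were 10.97, 11.37, 11.34 and 11.02. As for Bnip3, WT 2 was the highest array and WT 3 fell inside the KO range, but the size was smaller. The group means were 11.69 ± 0.44 (SD, n = 3) and 11.17 ± 0.21 (SD, n = 4), a difference of -0.51 (limma, 95% interval -1.01 to -0.02, adjusted p = 0.248). It was -0.73 without WT 3 (adjusted p = 0.0152) and -0.075 without WT 1 and WT 2 (95% interval -0.53 to 0.38).

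Because Bnip3 is a known target of the hypoxia-inducible factor HIF-1, its promoter is shown. Beside it are those of Sqstm1, Fundc1 and Tax1bp1, members picked after their values were seen. Sqstm1 also read highest on WT 1 and WT 2, as Bnip3 did, but its WT 3 value lay above the KO arrays too. Fundc1 read lowest on WT 1 and WT 2, and Tax1bp1 did not separate the groups. Each run is 300 bases long, from 250 before to 50 after the RefSeq transcription start in build GRCm38.p6. A window was found for 9 of the 10 members, all except Bnip3l. Capitals mark the motifs searched on both strands: the HIF core as ACGTG or GCGTG, the E-box CACGTG, which contains the first of these on both strands, and the antioxidant response core TGACNNNGC. The Bnip3 window is chr7:138909457-138909756, the Sqstm1 window chr11:50210771-50211070 and the Fundc1 window chrX:17571958-17572257, all on the minus strand. Tax1bp1 has a pair of windows, of which chr6:52713915-52714214 on the plus strand is shown.
Bnip3: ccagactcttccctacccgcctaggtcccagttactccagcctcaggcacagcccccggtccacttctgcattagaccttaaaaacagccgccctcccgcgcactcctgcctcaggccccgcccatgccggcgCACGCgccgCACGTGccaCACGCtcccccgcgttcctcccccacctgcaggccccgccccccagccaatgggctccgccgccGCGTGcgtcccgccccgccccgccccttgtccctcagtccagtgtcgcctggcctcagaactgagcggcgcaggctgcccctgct
Sqstm1: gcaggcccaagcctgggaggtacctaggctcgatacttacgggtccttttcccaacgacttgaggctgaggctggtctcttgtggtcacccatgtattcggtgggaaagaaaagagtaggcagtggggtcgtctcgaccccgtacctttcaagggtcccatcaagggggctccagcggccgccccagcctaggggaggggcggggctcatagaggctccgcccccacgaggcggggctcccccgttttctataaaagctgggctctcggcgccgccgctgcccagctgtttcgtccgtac
Fundc1: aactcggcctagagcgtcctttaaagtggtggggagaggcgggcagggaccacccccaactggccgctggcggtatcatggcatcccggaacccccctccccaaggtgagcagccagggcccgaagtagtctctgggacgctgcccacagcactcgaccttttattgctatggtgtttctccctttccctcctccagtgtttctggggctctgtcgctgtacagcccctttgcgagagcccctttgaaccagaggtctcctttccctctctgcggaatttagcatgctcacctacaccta
Tax1bp1: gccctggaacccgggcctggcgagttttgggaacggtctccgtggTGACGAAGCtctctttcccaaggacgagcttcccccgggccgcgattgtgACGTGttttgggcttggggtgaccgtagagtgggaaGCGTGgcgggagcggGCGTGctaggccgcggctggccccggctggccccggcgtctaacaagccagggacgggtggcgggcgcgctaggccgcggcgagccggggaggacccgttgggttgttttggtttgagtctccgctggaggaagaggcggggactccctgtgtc

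The Bnip3 window held 5 matches to the HIF core, 2 of ACGTG, which share 1 palindromic CACGTG that begins at position -108 relative to the start, and 3 of GCGTG or its complement. Of 32851 RefSeq windows 1.66% held at least 5 such matches, 43.8% at least 1, and 7.15% an E-box. These shares do not allow for base composition, and the Bnip3 window had the highest GC content of the member windows, 71.7%. The Sqstm1 and Fundc1 windows held 0 matches to any of the motifs. The Tax1bp1 window shown held 3 matches to the HIF core and the 1 match to the antioxidant response core found in any member, a motif present in 12.4% of all windows, and its other window held 1 HIF core. Of the windows not printed, Optn held 3 HIF cores, Fkbp8 held 2, and Phb2, Ulk1 and Pink1 held 1 each. Fkbp8, Phb2 and Ulk1, like Bnip3, read highest on WT 1 and WT 2. So did Sqstm1, whose window held 0 matches, and Bnip3l, which had no window. Tax1bp1, with HIF cores in both its windows, did not. Whether the matches go with the order of the arrays was not tested. A match is a string of letters and not a measured binding site.

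A list of 20 other hypoxia response genes had its highest means on the same arrays as Bnip3. The list was written with earlier results of these data known, so its counts describe these arrays and test nothing. Relative to KO its mean was 1.26, 1.76 and 0.22 for the WT arrays, where Bnip3 stood at 1.52, 2.19 and -0.081. The single KO arrays lay between -0.012 and 0.025. The KO mean was the lower one for all 20 (40.1% of all genes), 15 of them at an unadjusted p under 0.05 (10.6%), and 6 without overlap (5.92%), while 0 passed the adjusted threshold. On 19 of the 20, WT 1 and WT 2 were both above every other array (19.4% of all genes). On 17 WT 2 was above WT 1, as it was for Bnip3, an order whose share over all genes was not computed. Among them Kdm3a, a histone demethylase, averaged 10.76 ± 0.39 (SD, n = 3) over the WT arrays and 9.91 ± 0.03 (SD, n = 4) over the KO arrays, and Vegfa, an angiogenic growth factor, 11.24 ± 1.50 and 8.56 ± 0.20. Bhlhe40, a transcriptional repressor, averaged 11.80 ± 0.53 and 10.56 ± 0.47. These 3 genes, named for their low p, read higher on WT 3 than on every KO array. Over the 20, WT 3 lay above every KO array for 7 (18.1% of all genes) and below for 2 (24.2%). It lay inside the KO range for 11, as it did for Bnip3. The melanocyte and cDC1 marker lists also stood apart on WT 1 and WT 2, with the values given above, and their part in the Bnip3 and hypoxia differences was not tested.

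**Figure D2:**
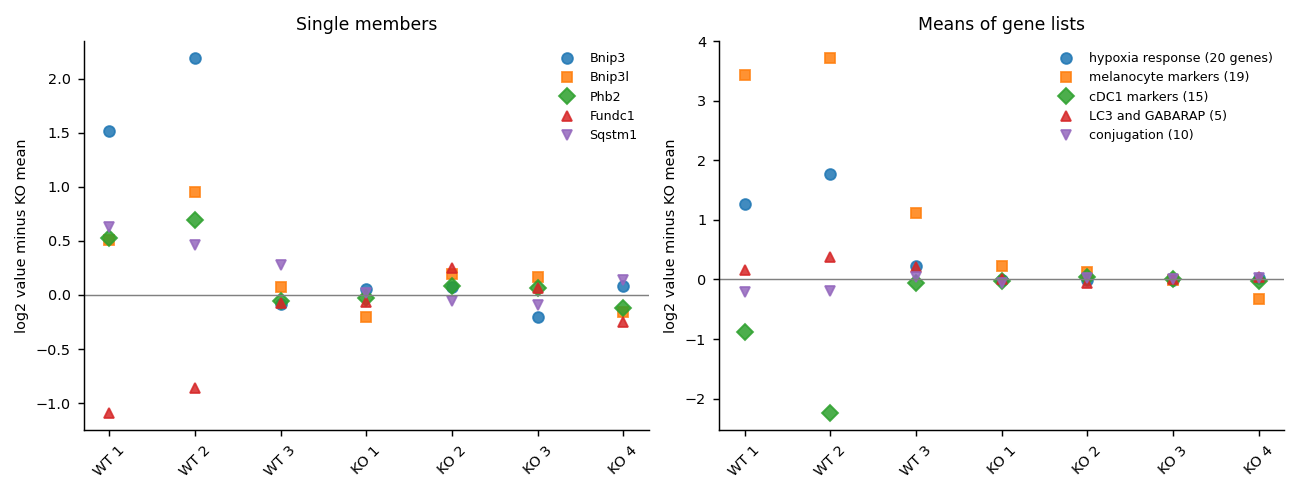
Log2 value minus the KO mean (y axis) on each array (x axis) for 5 members (left) and for the means of 5 gene lists (right). Bnip3 and the hypoxia list are highest on WT 1 and WT 2, Fundc1 is low there, and Sqstm1 is above 0 on all 3 WT arrays.

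Fundc1, an outer membrane receptor whose binding to LC3 is regulated by its phosphorylation, was the 1 member with higher values in KO. WT values were 10.15, 10.38 and 11.17 and KO values were 11.18, 11.49, 11.31 and 10.99. The profile was the reverse of Bnip3, with WT 1 and WT 2 below every other array and WT 3 among the KO arrays. Means were 10.57 ± 0.53 (SD, n = 3) and 11.24 ± 0.21 (SD, n = 4), a difference of 0.67 or 1.59-fold (limma, 95% interval 0.11 to 1.23, adjusted p = 0.224). Without WT 3 it was 0.97 (adjusted p = 0.00214) and without WT 1 and WT 2 it was 0.070 (95% interval -0.38 to 0.52). Its relative Fundc2, also an outer membrane protein, had a difference of the opposite sign, with WT values of 9.20, 9.32 and 8.46 and KO values of 7.86 to 8.24. The Fundc2 groups did not overlap, and its difference was -0.88 (limma, adjusted p = 0.223) and -0.35 without WT 1 and WT 2.

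Phb2, the inner membrane prohibitin that is also needed for normal processing of OPA1, had WT values of 12.49, 12.66 and 11.91 and KO values of 11.94, 12.04, 12.03 and 11.85. WT 1 and WT 2 were the highest arrays and WT 3 lay inside the KO range. The difference was -0.39 (limma, 95% interval -0.80 to 0.02, adjusted p = 0.266), -0.61 without WT 3 (adjusted p = 0.00522) and 0.053 without WT 1 and WT 2.

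Fkbp8, an outer membrane immunophilin that binds BCL2 as well as LC3, followed the same order on a smaller scale. WT values were 11.64, 11.70 and 11.18 and KO values were 11.16, 11.41, 11.37 and 11.18. The difference was -0.23 (limma, 95% interval -0.57 to 0.12, adjusted p = 0.394), -0.39 without WT 3 (adjusted p = 0.0437) and 0.099 without WT 1 and WT 2.

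Ulk1, the kinase that starts autophagosome formation, had WT values of 8.79, 8.81 and 8.05 and KO values of 8.15, 8.29, 8.35 and 8.24. WT 3 was its lowest array, so the WT arrays lay on both sides of the KO arrays. The difference was -0.29 (limma, 95% interval -0.73 to 0.15, adjusted p = 0.393), -0.54 without WT 3 (adjusted p = 0.00719) and 0.21 without WT 1 and WT 2 (95% interval -0.12 to 0.53). Ulk1 was below the 95th percentile of the negative control probe sets on all 7 arrays and 1.28 above their median where it came closest.

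Sqstm1, the ubiquitin-binding adaptor p62 and itself a cargo of autophagy, was the exception among the members. WT values were 12.79, 12.62 and 12.44 and KO values were 12.17, 12.10, 12.06 and 12.30. All 3 WT arrays were above all 4 KO arrays, with WT 3 the nearest. Means were 12.62 ± 0.18 (SD, n = 3) and 12.16 ± 0.11 (SD, n = 4), a 1.37-fold higher WT mean (limma, difference -0.46, 95% interval -0.73 to -0.19, adjusted p = 0.223). The exact permutation p was 0.0571, the smallest this design allows. Without WT 3 the difference was -0.55 (adjusted p = 0.01), and without WT 1 and WT 2 it kept its sign at -0.28 (95% interval -0.62 to 0.063, adjusted p = 0.845).

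Tax1bp1, an adaptor that binds ubiquitin chains and LC3 and is also known for restraining NF-kB signalling, did not separate the groups in either direction. WT values were 10.46, 10.38 and 10.43 and KO values were 10.13, 10.66, 10.64 and 10.25. The 3 WT arrays lay within the span of the KO arrays, whose SD of 0.27 was the largest of the 8 members. The difference was -0.0044, and its 95% interval of -0.36 to 0.35 (limma, adjusted p = 0.989) leaves room for changes in either direction. Tax1bp1 was the only member with a smaller SD in WT than in KO. For the other 7 the WT SD was the larger, as for 66.7% of all genes, and the median SD of the members was 0.41 in WT and 0.13 in KO against 0.20 and 0.14 over all genes. For the 6 members other than Bnip3 and Sqstm1 the exact permutation p lay between 0.114 and 0.971.

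**Figure D3:**
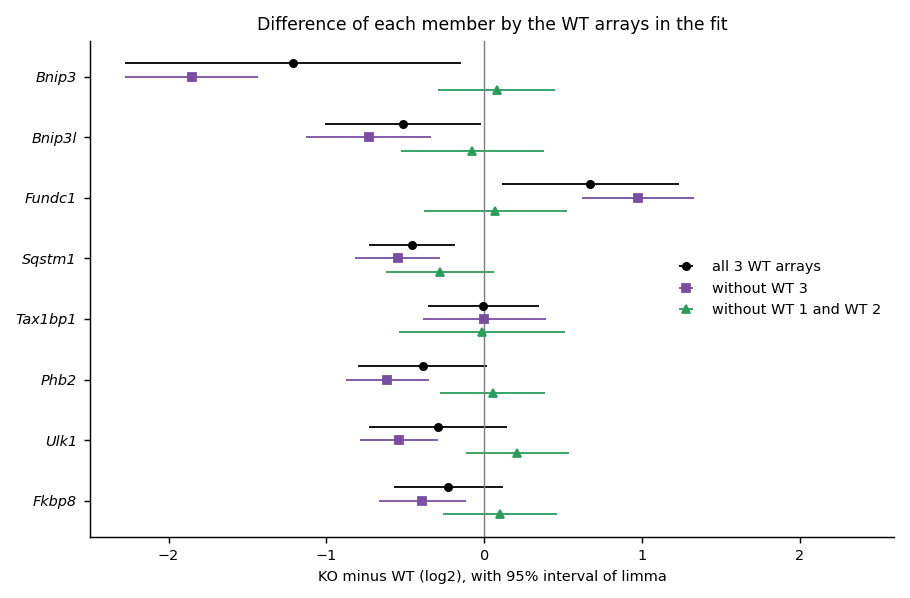
KO minus WT on the log2 scale (x axis) for each measured member (y axis), with the 95% interval of limma, using all 3 WT arrays (black circles), without WT 3 (purple squares) and without WT 1 and WT 2 (green triangles). Without WT 1 and WT 2 every interval includes 0, and Bnip3 moves from -1.21 to 0.081.

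Of 71 other genes of mitophagy and autophagy in 8 lists arranged by role, 69 were measured, and the others were not analysed here. These lists too were written with earlier results of these data known. None passed the adjusted threshold (0% of all genes). At an unadjusted p under 0.05 in limma 20 were lower and 4 higher in KO (10.6% and 8.98% of all genes), and 11 were lower and 5 higher without overlap between the groups (5.92% and 7.85%). Without WT 3, 15 were called lower and 13 higher (13.8% and 11.4%).

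Of 11 other receptors and cargo adaptors, 10 had a lower mean in KO (40.1% of all genes), with a median difference of -0.45. At an unadjusted p under 0.05 in limma 7 were lower (10.6% of all genes). Without overlap 5 were lower (5.92% of all genes), namely Calcoco1, Fundc2, Nipsnap2, Tex264 and Ncoa4. Tex264, a receptor for autophagy of the endoplasmic reticulum, averaged 10.45 ± 0.45 (SD, n = 3) over the WT arrays and 9.84 ± 0.03 (SD, n = 4) over the KO arrays. Nipsnap2, a mitochondrial matrix protein that can mark depolarised mitochondria, averaged 9.90 ± 0.27 and 9.39 ± 0.25. Without WT 1 and WT 2 the median of the list was -0.26, with 9 of 11 lower and WT 3 above every KO array for 7 (18.1% of all genes). Calcoco1, an autophagy receptor, had WT values of 10.02, 10.18 and 10.27 and KO values of 9.30 to 9.98. Its highest array was therefore WT 3, and its difference was -0.45 with all arrays and -0.56 without WT 1 and WT 2, neither of them called.

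The 5 genes of the LC3 and GABARAP families, to which the receptors bind, did not share a direction. Gabarapl1 had WT values of 11.03, 11.52 and 10.65 and KO values of 10.33, 9.97, 9.95 and 10.38, with no overlap. Its difference was -0.91 (limma, standard error 0.216, adjusted p = 0.223) and -0.50 without WT 1 and WT 2. Map1lc3a also had no overlap, with a mean of 8.02 ± 0.18 (SD, n = 3) against 7.64 ± 0.17 (SD, n = 4), and Map1lc3b differed by -0.37. Gabarap and Gabarapl2 had differences of 0.05 and 0.39, and the median of the 5 was -0.37.

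In the ubiquitin-dependent arm 8 of 13 measured genes had a lower mean in KO (40.1% of all genes), with a median of -0.11. At an unadjusted p under 0.05 in limma 4 were lower and 1 was higher (10.6% and 8.98% of all genes). Vdac1, a channel of the outer membrane, had WT values of 10.41, 11.36 and 9.39 and KO values of 9.01 to 9.41. WT 3 was inside the KO range, and the difference went from -1.11 with all arrays to -0.11 without WT 1 and WT 2. Fbxo7, an F-box protein, and Rhot1, which ties mitochondria to their motors, had no overlap and differed by -0.59 and -0.44. Without WT 1 and WT 2 they differed by -0.13 and -0.26. Usp8 had no overlap in the other direction, with WT values of 10.90 to 11.53 and KO values of 11.54 to 11.66. Its difference was 0.40 with all arrays and 0.0555 without WT 1 and WT 2.

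For the machinery that builds the autophagosome the list medians were 0.11 for initiation (3 of 9 lower), 0.08 for nucleation (3 of 7), 0.19 for conjugation of LC3 (4 of 10) and -0.0009 for fusion with the lysosome (4 of 7). Of all genes 40.1% were lower. For these 4 lists without WT 1 and WT 2 the medians lay between -0.048 and 0.004. Rb1cc1, the scaffold of the ULK1 complex, had WT values of 7.54, 7.82 and 9.16 and KO values of 8.63 to 8.98, so its WT arrays lay on both sides of the KO arrays. Wipi1, a phosphoinositide-binding protein of the growing membrane, differed by -0.85 and Atg3, the enzyme that attaches LC3 to lipid, by 0.48, and without WT 1 and WT 2 these differences were -0.17 and -0.066. Epg5, a tether for fusion with lysosomes, had no overlap and a higher mean in KO, 8.80 ± 0.20 (SD, n = 4) against 8.18 ± 0.25 (SD, n = 3). Its difference of 0.62 was 0.40 without WT 1 and WT 2. Tecpr1, another tether, differed by -1.02 and by -0.026 without WT 1 and WT 2.

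Among 7 regulators 5 had a lower mean in KO (40.1% of all genes), with a median of -0.13. Tfeb and Tfe3, the main transcription factors of autophagy and lysosome genes, read 9.93 to 9.98 and 9.86 to 10.03 in WT and 9.89 to 10.17 and 9.82 to 9.99 in KO. Their relative Mitf had WT values of 12.42, 12.68 and 9.25 and KO values of 8.02 to 8.74, a difference of -3.13 (limma, adjusted p = 0.223). Mitf is also the lineage factor of melanocytes and belongs to the melanocyte list above. Hif1a, the oxygen-regulated subunit of HIF-1, averaged 10.57 ± 0.18 (SD, n = 3) over the WT arrays and 10.23 ± 0.15 (SD, n = 4) over the KO arrays. Its difference was -0.34 with all arrays and -0.36 without WT 1 and WT 2, neither of them called.

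**Figure D4:**
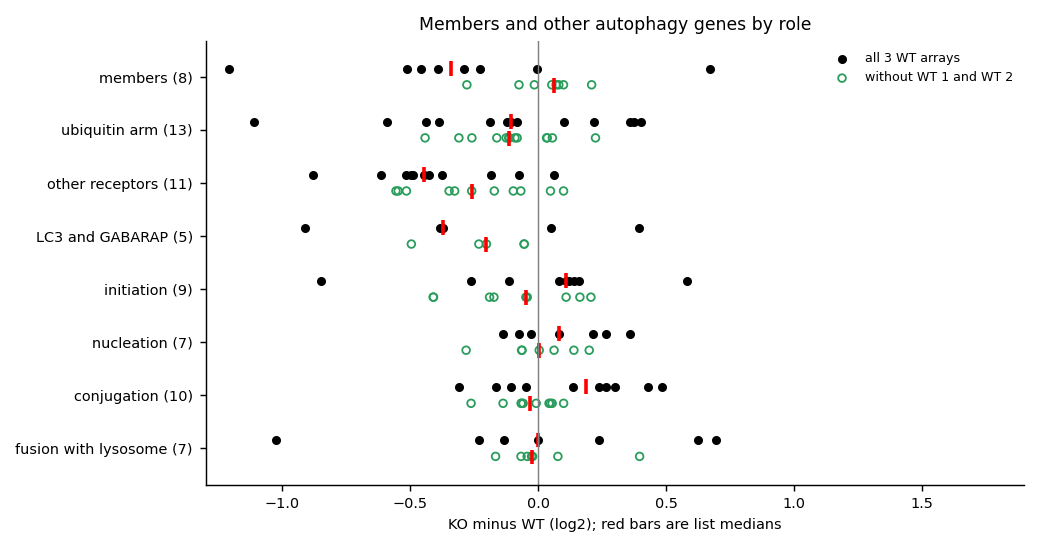
KO minus WT on the log2 scale (x axis) for the measured members and 7 lists of other autophagy genes (y axis, number of genes in brackets), with all WT arrays (filled black) and without WT 1 and WT 2 (open green), where red bars are list medians. The median of the members moves from -0.34 to 0.062, and that of the other receptors stays below 0, at -0.45 and -0.26.

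The genes whose profiles over the 7 arrays were nearest to the members of widest range, Bnip3 and Fundc1, were found by the root mean square difference between profiles centred on their own mean, over 19504 genes. Nearest to Bnip3 were Zik1 at 0.081 log2 units, Zswim5 at 0.10, Parvb at 0.10 and Ccdc38 at 0.12. Zik1, Zswim5 and Ccdc38 lay below the median of the negative control probe sets on WT 3 and on every KO array. Parvb, a focal adhesion protein, had WT values of 9.49, 9.81 and 7.63 and KO values of 7.50 to 7.85. Nearest to Fundc1 were Bcap29 at 0.052, Klhl18 at 0.052, Plpp6 at 0.060 and Kmo, an enzyme of tryptophan breakdown, at 0.067. Kmo had WT values of 9.66, 9.96 and 10.76 and KO values of 10.62 to 11.10. None of these 8 genes is in the lists of autophagy genes or cell type markers.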

How the data were processed

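RNA of 3 WT and 4 KO samples was measured on Affymetrix arrays, with a whole-transcript labelling kit per the labels' protocols. The authors deposited log2 expression values of 28846 probe sets, and per the submitters' processing notes the tools were RMA and, in version 1.1, Affymetrix Expression Console. RMA corrects background, normalizes quantiles and summarises probes, which compresses dim signals. The set of arrays that shared a normalization is not stated in the sources used here. Of 22206 transcript probe sets, 19572 carried 1 gene symbol in the platform annotation, several symbols were carried by 0, and 2634 are unnamed here. Each symbol was represented by its probe set of highest mean, which left 19505 genes. Precision is limited by the number of arrays.

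KO was compared with WT for all genes by lmFit and eBayes of limma 3.58.1 under R 4.3.3 without covariates. P-values were adjusted over the whole gene table by Benjamini-Hochberg, and 0.05 was the threshold. Single genes were also tested by exact two-sided permutation over 35 assignments. The scripts were tested on simulated data. A list's mean on an array is the mean of its genes' log2 values minus their KO means, and its summed level adds linear values. Named genes were the members, Opa1, up to 3 genes per list of autophagy, regulator and hypoxia genes by unadjusted p, up to 4 leading genes per marker list, and 4 nearest profiles for each of the 2 members of widest range. Calcoco1, Ncoa4, Gabarap, Gabarapl2, Usp8, Tfeb, Tfe3, S100b, Kdr and Pecam1 fall outside this rule and were picked after their values were seen. The members, lists and alternatives were chosen with earlier results of these data known. Promoter sequences are from RefSeq, build GRCm38.p6. Alternatives left out arrays, blocked on the replicate number, centred medians, normalized quantiles, dropped dim genes, set trended and robust variance, weighted arrays, or changed the choice of probe set.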

Additional observations from a re-analysis of the deposited data

Results flagged for a closer look

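Among 36 genes examined (the measured members, Opa1 and the genes named from the autophagy, regulator and hypoxia lists), 2 had a KO array far from the other 3. Such a gap arises by chance in about 5% of groups. Bnip3 read 9.24 on KO 3, below the nearest KO array at 9.50, a gap of 0.88 of the KO range. Hif1a read 10.45 on KO 1, above the nearest KO array at 10.18, a gap of 0.86 of the range. The groups of 3 WT arrays were not examined in this way.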

How the results depend on the processing

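Over 16 alternatives the 8 members gave 128 differences, of which 103 kept both sign and side of the threshold, 13 gained a call and 12 changed sign. The 13 calls came from leaving out WT 3 and from array weights, which gave WT 3 the lowest weight (0.241, against 0.56 for WT 2 and 1.15 to 2.04 for the others). Members called went from 0 to 6 with array weights and ranged from 0 to 7 when single arrays were left out. For the 69 pathway genes the counts were 22 and 0 to 28, and over all genes they were 0, 4458 and, without WT 3, 4931. Without WT 1 and WT 2 together, 3 members were lower in KO instead of 7, and Bnip3 (0.081), Phb2 (0.053), Ulk1 (0.21) and Fkbp8 (0.099) changed sign. That setting holds 1 WT array and no longer the pair that read highest for these 4 genes. Tax1bp1 changed sign with the replicate block (0.052), median centring (0.047), quantile normalization (0.060) and array weights (0.014), and ranged from -0.085 to 0.093 when single arrays were left out. Opa1 was lower in KO under every alternative that kept it (-0.99 to -1.67), and the dim filter dropped it. Arrays of the same number did not deviate together (r = -0.038, 0.046 and -0.017 for numbers 1 to 3), so the numbers were not taken as pairs. The replicate block, to which KO 4 adds nothing, called 0 genes, and its other 7 member differences kept their sign.

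Among the members, Ulk1 on all 7 arrays, Bnip3 on 5 and Tax1bp1 on 1 lay, as did Opa1 on all 7, below the 95th percentile of negative control probe sets, where differences can be understated.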

Other observations

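The KO arrays were ordered alike for most members. KO 2 and KO 3 both read above KO 1 and KO 4 for 6 of the 8 measured members (Bnip3l, Fundc1, Tax1bp1, Phb2, Ulk1 and Fkbp8) and below them for 1 (Sqstm1), while 24% and 19% of all genes had these orders. Of the 69 other autophagy genes 20 had the first order and 15 the second. Opa1 was lowest on the same arrays, at 7.10 on KO 2 and 6.85 on KO 3 against 7.70 on KO 1 and 8.24 on KO 4. The median of the negative control probe sets was also lower there, at 6.49 and 6.67 against 6.88 and 6.88. These orders were noticed in the data, rest on 4 arrays and were not tested.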
